A study of Mus musculus with 3 samples.

Results

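This account covers 41 mouse genes for the enzymes and membrane proteins of the lysosome, chosen by name for their role. The choice was made with earlier results of these data known. Each gene was read through the probe set annotated to it alone that had the highest mean log2 signal over the 3 arrays. Of the 41 genes, 40 had such a probe set, out of 18194 genes read in the same way, and Cd63 was not analysed here. The gene for cathepsin S, Ctss, lay at the floor on each array, so 39 genes could be compared between days. By role, the list held 9 cathepsins, 2 other peptidases, 11 glycosidases, 5 sulfatases, 6 lipid enzymes and activators, 5 membrane proteins, 2 subunits of the proton pump and 1 transcriptional regulator, Tfeb.

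Lysosomes are acidic compartments in which cells break down material taken up from outside and worn parts of their own. A proton pump in the membrane, the V-ATPase, keeps them acidic, soluble enzymes cut proteins, sugar chains, sulfated sugars and lipids, and heavily glycosylated proteins such as Lamp1 and Lamp2 line the membrane. The transcription factor TFEB binds a short promoter element, the CLEAR element, in many lysosomal genes. The endoderm layers around the early mouse embryo, and the visceral endoderm above all, take up maternal protein by endocytosis and degrade it in large lysosomes.

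The study used mouse embryonic stem (ES) cells, pluripotent cells of the early embryo, that were modified so that overexpression of Gata6 responds to dex. Gata6 is a transcription factor of the primitive endoderm, the first extraembryonic endoderm. The groups were a day 0 control, day 1 and day 2 of Gata6 overexpression, with 1 array each and no replicates. The labels do not say if the control was the modified line without dex, nor do they state the line or clone, the dose of dex, the medium or any feeder cells. Each difference between days is therefore also a difference between single cultures and single arrays, and no p-value can be given.

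The arrays had median signals of 81.8 to 86.4 and 12290 to 12658 genes above the floor of 54.0, below which signals were set to that value. Gata6 itself read 110, 5574 and 6070 on days 0, 1 and 2 in its brightest probe set. Its 3 probe sets disagreed, with log2 ratios from 0.00 to 5.67 on day 1 and from 0.93 to 5.79 on day 2. Whether each probe set sees the introduced gene, the cell's own or both is not known. The labelled cell type was borne out on day 0, when all 10 pluripotency markers lay above the floor. The summed signal of those markers was 133870, 58358 and 48196 on days 0, 1 and 2, and that of 15 primitive endoderm markers was 5458, 98688 and 174513. The widest day 2 log2 ratios were those of Fgf4, Nr0b1 and Tdgf1 among the former, all lower, and of Cubn, Dab2 and Sox17 among the latter, all higher. Dppa5a, which makes up most of the day 2 sum of the former, stayed within 2-fold at 40759, 37051 and 36734. Afp, among the latter, was at the floor on each array. Both are named after their values were seen. Most of these marker levels moved with the day, so cell type and day cannot be told apart in the values given here. In such bulk RNA, more cells of a type and more RNA per cell cannot be told apart.

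Here, higher and lower mean a signal ratio of 2-fold or more between a pair of arrays, with the larger signal over the floor. Errors are the SD of a log2 ratio between probe sets of the same gene: 0.52 in the dimmest class, up to a signal of 200, then 0.32 up to 1000, 0.18 up to 5000 and 0.12 beyond. They measure the array reading and leave out the spread between cultures. Pairs were classed by the signal of the second brightest probe set, while each gene took the class of its brightest one.

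Read by the brightest probe set, many lysosomal enzymes, the cathepsins above all, had a higher signal on day 2 of Gata6 overexpression. Few members of the list had a lower one. Of the 39 genes compared with day 0, 18 were at least 2-fold higher, which is 46.2%, while 11.0% of the 13866 genes compared over the whole array were higher. Only 1 of the 39 was at least 2-fold lower, which is 2.56%, while 10.1% of all genes were. The median log2 ratio was 0.85 over the lysosomal genes and -0.05 over all genes compared. Day 1 showed less. Of 39 genes, 7 were higher (17.9%, where all genes had 6.00%) and 3 lower (7.69%, where all genes had 6.58%). The median log2 ratio was 0.12. The share lower on day 1 was near that of all genes. With the mean over a gene's probe sets, dim ones included, 2 of 39 were higher on day 1, while 4.60% of all genes were, so the day 1 share depends on taking the brightest probe set.

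Between day 1 and day 2, 10 of 39 were higher (25.6%, where all genes had 5.61%) and 0 lower (3.67% of all genes). The median of the 39 log2 ratios was 0.68. The comparisons share arrays, so their counts are not independent.

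**Figure D1:**
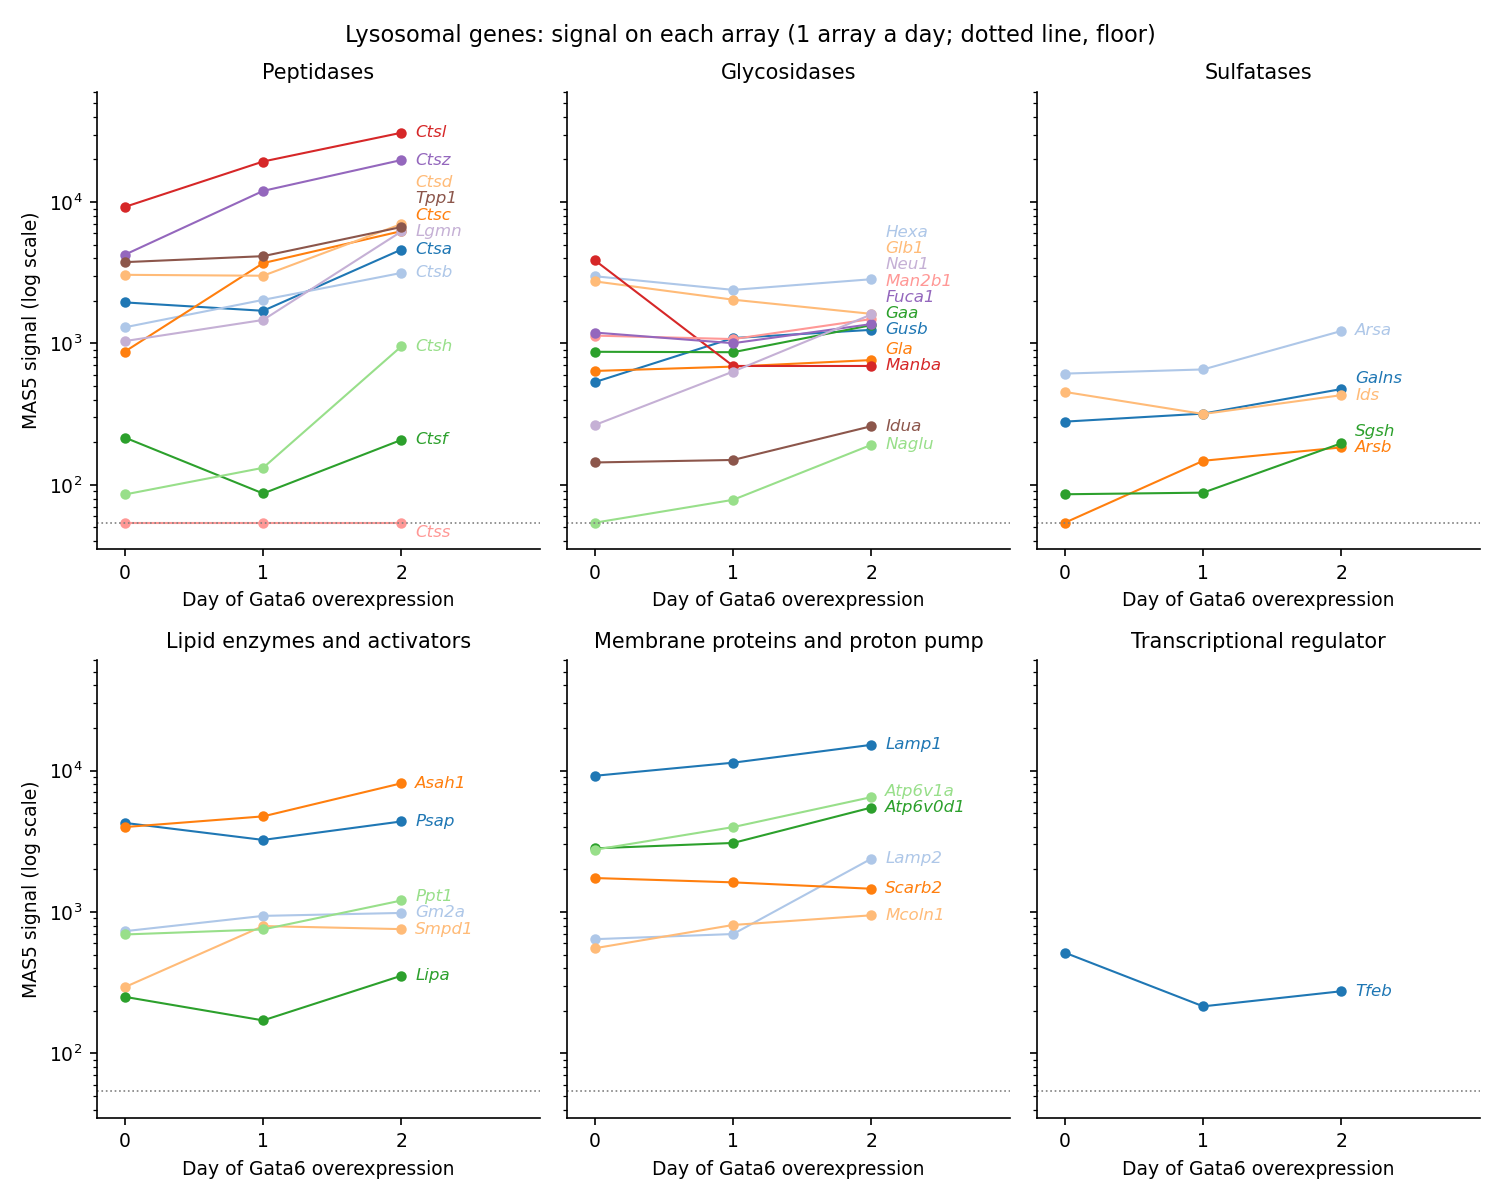
MAS5 signal on a log axis against the day of Gata6 overexpression for the 40 lysosomal genes with a probe set, by role, with 1 point for each of the 3 arrays and values under the floor of 54.0 drawn at it. Most peptidases are brightest on day 2, Ctss lies at the floor, Manba is at 3872 on day 0 and 693 on both later days, and Tfeb is at 515, 215 and 275.

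Promoter sequences are given next because lysosomal genes share a known promoter element and many of these genes were higher together on day 2, as the counts above show. RefSeq promoters of build GRCm38.p6, each 300 bases long with 250 before and 50 after a gene's start, were matched by symbol for 37 of the 41 genes. Ctsb, Ctsh, Galns and Asah1 had no entry there. The search covered the E-box CACGTG, the longer CLEAR core TCACGTGA, which always holds that E-box, and the GATA motif AGATAA, on both strands.

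At least 1 E-box stood in the promoter of 15 of the 37 lysosomal genes (40.5%), against 8.09% of all 27025 genes in the table and 11.3% of those compared on the array. The CLEAR core stood in 6 of 37 (16.2%), against 1.12% and 1.92%. These 6 were Ctsa, Ctsd, Mcoln1, Atp6v0d1, Atp6v1a and Gla. The GATA motif stood in 4 of 37 (10.8%), those of Ctsz, Psap, Arsb and Gla, against 12.7% and 8.01%. A match is a stretch of letters and does not show that a factor binds there.

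The 100 bases before the start are shown for 5 genes: Lamp1, with the most E-boxes, Ctsd, Ctsa and Lgmn, which have an E-box and were higher on day 2, and Ctsz, which was higher and has a GATA motif but no E-box. Capitals mark the E-box, and in Ctsz the GATA motif, read here on the opposite strand. All are written 5′ to 3′ on the gene's strand. Lamp1 lies at chr8:13159061-13159160 (+), Ctsd at chr7:142387828-142387927 (-), Ctsa at chr2:164833673-164833772 (+), Lgmn at chr12:102439093-102439192 (-) and Ctsz at chr2:174439040-174439139 (-). For Ctsa and Lgmn this is 1 of 2 listed starts, the one that has the E-box.
Lamp1: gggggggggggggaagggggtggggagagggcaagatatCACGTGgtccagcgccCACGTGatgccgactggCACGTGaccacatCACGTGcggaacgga
Ctsd: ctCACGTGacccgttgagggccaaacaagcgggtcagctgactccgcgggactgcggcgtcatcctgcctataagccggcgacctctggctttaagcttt
Ctsa: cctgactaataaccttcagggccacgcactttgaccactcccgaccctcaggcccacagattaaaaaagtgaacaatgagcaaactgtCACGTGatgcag
Lgmn: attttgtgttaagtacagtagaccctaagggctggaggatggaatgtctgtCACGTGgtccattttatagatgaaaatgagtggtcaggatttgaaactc
Ctsz: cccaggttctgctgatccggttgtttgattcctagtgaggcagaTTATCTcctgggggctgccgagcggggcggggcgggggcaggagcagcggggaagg

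The Lamp1 promoter held 4 E-boxes, whose first bases lay 61, 45, 28 and 15 bases before the start. The E-boxes of Ctsd, Ctsa and Lgmn shown here began 98, 12 and 49 bases before it, and the GATA motif of Ctsz 56 bases before. Ctsd held a further E-box 245 bases before the start, and Ctsa a further one just after it. Against day 0, 8 of the 15 genes with an E-box were higher on day 2 and 0 lower, and their log2 ratios had a median of 1.00 (range -0.76 to 2.57). Of the 20 compared genes that had a promoter but no E-box, 7 were higher and 1 lower, and the median was 0.65 (range -2.48 to 2.83). The ranges overlapped over most of their length. Of all genes compared, 11.0% were higher on day 2 and 10.1% lower. On day 1, 1 of the 15 with an E-box and 6 of the 20 without were higher (6.00% of all genes). Lower on that day were 1 and 2 (6.58% of all genes). Between day 1 and day 2, 6 and 3 were higher (5.61% of all genes), so the order of the 2 sets differed by comparison.

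Cathepsins are the main lysosomal proteases, and on day 2 they had the largest share of higher genes of the roles with more than 2 members. Of the 8 compared, 7 were higher (87.5%, where all genes had 11.0%) and 0 lower (10.1% of all genes). The cathepsin median log2 ratio was 1.51. The day 1 counts were 3 and 1 (37.5% and 12.5%, where all genes had 6.00% and 6.58%). With the mean over a gene's probe sets, dim ones included, the day 2 log2 ratios of Ctsa, Ctsb, Ctsc and Ctsl fell short of 2-fold. They were 0.76, 0.76, 0.95 and 0.87. The day 2 share of the cathepsins thus depends on taking the brightest probe set. Cathepsin H (Ctsh), an aminopeptidase, read 85.5 on day 0, 132 on day 1 and 954 on day 2. Day 2 stood apart, 11.2-fold above day 0 (log2 ratio 3.48 ± 0.32), and the second Ctsh probe set, at the floor on day 0, had a log2 ratio of 3.06. Cathepsin C (Ctsc), which activates other proteases by trimming dipeptides, read 876, 3699 and 6227. Both later days were high, by 4.22-fold and 7.10-fold, but its other probe sets never read above 54.5 and gave no second reading.

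Cathepsin Z (Ctsz), a carboxypeptidase, read 4242, 11989 and 19819, which is 2.83-fold and 4.67-fold above day 0 (day 2 log2 ratio 2.22 ± 0.12). Its 3 probe sets gave day 2 log2 ratios between 2.19 and 2.33. Cathepsin L (Ctsl), an endopeptidase abundant in endoderm, read 9235, 19348 and 30908, a 2.10-fold and a 3.35-fold difference, and its second probe set was at the floor throughout. In both genes each day was brighter than the one before.

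Other cathepsins were higher on day 2 and not on day 1. Cathepsin A (Ctsa), a carboxypeptidase that also protects the enzymes Neu1 and Glb1 in a complex, read 1951, 1702 and 4614, a 2.37-fold difference on day 2. Its second, dim probe set gave a log2 ratio of 0.29. Cathepsin D (Ctsd), the main aspartic protease, read 3057, 3012 and 6990, equal on the first pair of days within the error and 2.29-fold higher on day 2. Cathepsin B (Ctsb), a cysteine protease, read 1301, 2033 and 3153. It was brighter on day 1 but short of 2-fold (log2 ratio 0.64 ± 0.18), and 2.42-fold higher on day 2. Its second brightest probe set gave a day 2 log2 ratio of 1.06, and the dimmer ones 0.73, 0.45 and 0.27. In the brightest probe set, these 3 genes differed from day 0 by several times the error on day 2.

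Cathepsin F (Ctsf), another cysteine protease, read 216, 86.9 and 208. It was 2.48-fold lower on day 1 and level with day 0 on day 2 (log2 ratio -0.06 ± 0.32), and its dimness gave the day 1 ratio an error of 0.52. The day 1 call of Ctsf was lost with a 60th percentile floor (log2 ratio -0.56), a pseudocount of 50 (-0.96) and the mean over probe sets (-0.66). Ctss, the cathepsin typical of macrophages and other antigen-presenting cells, was at the floor on each array. The remaining peptidases were legumain (Lgmn), which cuts after asparagine, and the tripeptidyl peptidase Tpp1. Lgmn read 1039, 1466 and 6191 and was 5.96-fold higher on day 2, with 4.22-fold between day 1 and day 2. Tpp1 read 3758, 4142 and 6656, a log2 ratio of 0.82 ± 0.12, short of 2-fold.

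**Figure D2:**
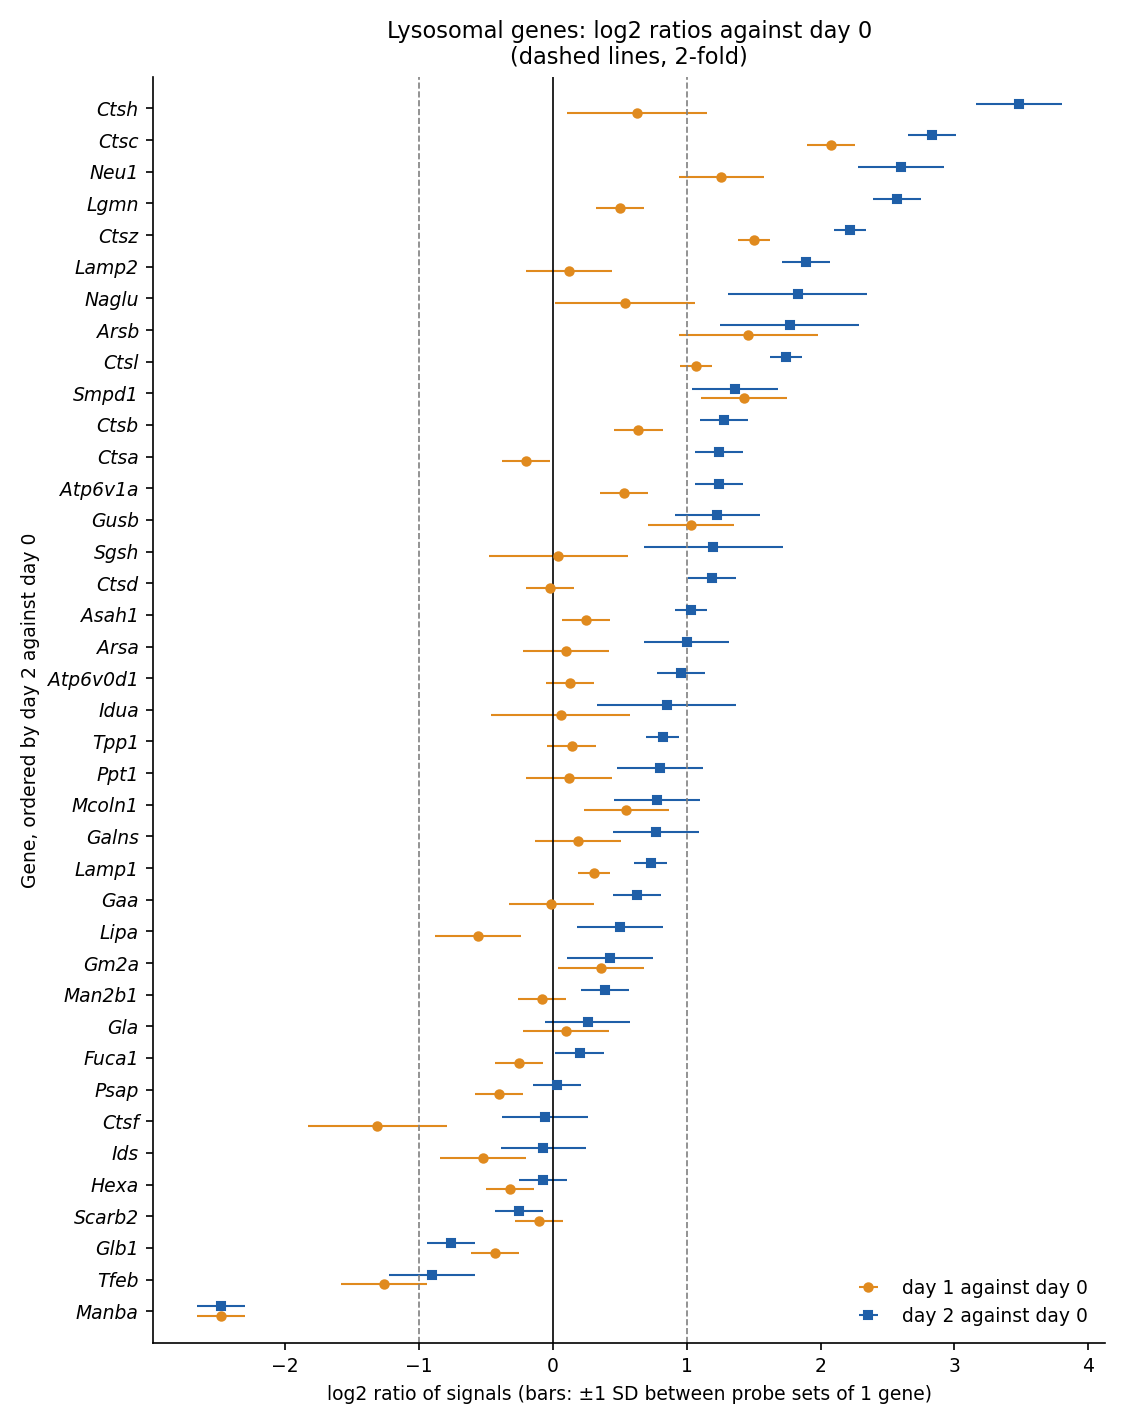
Log2 ratios against day 0 of the 39 lysosomal genes compared, for day 1 (circles) and day 2 (squares), with bars of 1 SD between probe sets of 1 gene and dashed lines at 2-fold. Ctsh at 3.48, Ctsc at 2.83, Neu1 at 2.60 and Lgmn at 2.57 lead on day 2, and Manba stands alone at -2.48 on both days.

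Glycosidases, which trim sugar chains, were a mixed group. On day 2, 3 of 11 were higher and 1 was lower (27.3% and 9.09%, where all genes had 11.0% and 10.1%). Day 1 had 2 and 1 (18.2% and 9.09%, where all genes had 6.00% and 6.58%). The shares lower were near those of all genes. The glycosidase median log2 ratios were 0.39 on day 2 and -0.01 on day 1. The sialidase Neu1 read 265, 633 and 1603, brighter on each day, and was 2.39-fold and 6.06-fold higher than on day 0. Its other probe sets were dim and gave log2 ratios of -0.18 and 0.19 on day 1 and 0.51 and 1.02 on day 2. The beta-glucuronidase Gusb, often used as a reference gene, read 533, 1092 and 1248, and its second probe set gave a day 2 log2 ratio of 0.91 where the first gave 1.23 ± 0.32. Naglu, which acts on heparan sulfate, was at the floor on day 0 and read 78.4 and 192 after, at least 3.55-fold higher on day 2 in a range near background.

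The beta-mannosidase Manba was the 1 member at least 2-fold lower on day 2. It read 3872 on day 0 and 693 on both later days, a 5.58-fold and a 5.59-fold lower signal (log2 ratio -2.48 ± 0.18 on both days). The later days were level with each other. Manba had a single probe set, so this value had no second reading.

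The other glycosidases were within 2-fold of day 0. The beta-hexosaminidase subunit Hexa read 2988, 2392 and 2846 (day 2 log2 ratio -0.07 ± 0.18). The beta-galactosidase Glb1 read 2747, 2039 and 1619 and was dimmer each day (-0.76 ± 0.18). The acid alpha-glucosidase Gaa, which degrades glycogen, read 873, 867 and 1348 (0.63 ± 0.18), and its second probe set gave 0.96. The alpha-mannosidase Man2b1 (log2 ratio 0.39), the alpha-galactosidase Gla (0.26), the alpha-fucosidase Fuca1 (0.20) and the iduronidase Idua (0.85) lay between 0.20 and 0.85 on day 2. Of these, Idua was dim, at 144 to 260, and its second probe set gave a log2 ratio of 0.15.

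Sulfatases remove sulfate groups from sugars and lipids. Of 5, 3 were higher on day 2 and 0 lower, where 11.0% of all genes were higher and 10.1% lower. The sulfatase median log2 ratio was 1.00. Arsb alone was higher on day 1, where 6.00% of all genes were. So short a list cannot show if its day 1 share, or its share lower, differs from that of all genes. The arylsulfatase Arsb was at the floor on day 0 and read 148 and 184 after, at least 2.75-fold and 3.40-fold higher. Its other probe sets stayed at or near the floor. The heparan sulfatase Sgsh read 85.8, 88.1 and 197 (day 2 log2 ratio 1.20 ± 0.52), and its second probe set gave 0.78, short of 2-fold. The arylsulfatase Arsa read 612, 655 and 1226, just past the threshold at 2.00-fold. The keratan sulfatase Galns read 280, 319 and 476, and the iduronate sulfatase Ids 454, 317 and 431, both within 2-fold.

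Among the lipid enzymes and their activators, 2 of 6 were higher on day 2 (33.3%, where all genes had 11.0%). In this role 0 were lower (10.1% of all genes), and the median log2 ratio was 0.65. The acid sphingomyelinase Smpd1 read 294, 795 and 756, higher by 2.70-fold on day 1 and 2.57-fold on day 2, and its second probe set gave log2 ratios of 0.73 and 0.69. The acid ceramidase Asah1 read 3984, 4741 and 8126, a 2.04-fold difference on day 2. Prosaposin (Psap), the precursor of the sphingolipid activators, read 4263, 3231 and 4365 and was level with day 0 on day 2. The GM2 activator Gm2a read 731, 938 and 984, the thioesterase Ppt1 693, 752 and 1205, and the acid lipase Lipa 251, 171 and 354. Lipa had a day 2 log2 ratio of 0.50 ± 0.32, with 0.22 and 1.25 in its other probe sets. Over the probe sets above the floor, day 2 log2 ratios ran from -0.04 to 0.43 for Gm2a and from -0.33 to 0.80 for Ppt1.

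Of the membrane proteins, 1 of the 4 compared was higher on day 2 and 0 lower, where 11.0% of all genes were higher and 10.1% lower. With 4 genes, these counts cannot be told from the shares of all genes. Lamp2, which also takes part in chaperone-mediated autophagy, read 642, 698 and 2382, level on the first pair of days and 3.71-fold higher on day 2. Its 4 probe sets gave day 2 log2 ratios from 0.80 to 2.54. Lamp1 was already bright and read 9181, 11364 and 15199, a log2 ratio of 0.73 ± 0.12. Scarb2, the receptor that brings glucocerebrosidase to lysosomes, read 1737, 1619 and 1459, and the calcium channel Mcoln1 read 554, 809 and 947. Both stayed within 2-fold.

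Both listed subunits of the proton pump were brighter on day 2. The catalytic subunit Atp6v1a read 2755, 3982 and 6488, a 2.36-fold difference, and its second probe set gave a log2 ratio of 1.05. The membrane-side subunit Atp6v0d1 read 2817, 3075 and 5475, just short of the threshold at 1.94-fold. Tfeb, the regulator, went the other way. It read 515, 215 and 275, 2.40-fold lower on day 1 (log2 ratio -1.26 ± 0.32) and 1.87-fold lower on day 2 (-0.90 ± 0.32), and had 1 probe set.

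Second probe sets gave a further reading of each ratio, although on the same arrays and with their brightness used in choosing the first. Of the 18 genes higher on day 2, 12 had a second probe set above the floor on any array. In 4 of these, Arsb, Ctsc, Ctsh and Neu1, it was at the floor on day 0 and could not have shown a lower day 2. The other 8 second probe sets were free to differ either way. All 8 were on the higher side, and 4 of them, those of Ctsb, Ctsz, Lamp2 and Atp6v1a, were themselves at least 2-fold higher. Over the whole array this held for 575 and 397 of 639 such genes. For day 1, 3 genes had such a second probe set, of which 3 were on the higher side and 1 past 2-fold, against 276 and 174 of 316.

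**Figure D3:**
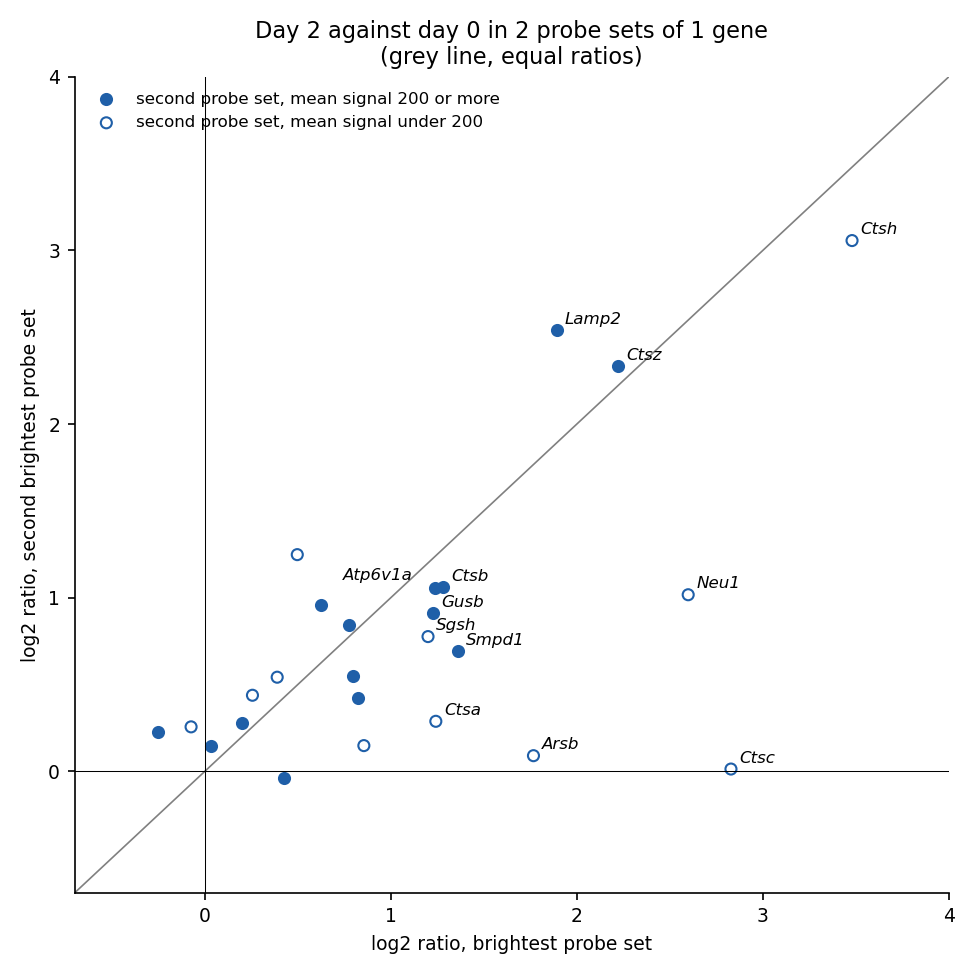
Log2 ratio of day 2 against day 0 in the second brightest probe set (vertical) against that in the brightest one (horizontal) for the 25 lysosomal genes with a second probe set above the floor. Ctsh, Ctsz and Lamp2 lie far from 0 in both, while Ctsc and Arsb lie near 0 on the vertical axis, and open circles mark second probe sets with a mean signal under 200.

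Other genes of the pathway were taken from lists drawn up by role, also with earlier results of these data known. Over all 149 compared on day 2, including sorting, proton pump, signalling and autophagy genes, 22 were higher (14.8%) and 12 lower (8.05%), and the median log2 ratio was 0.34. These shares lay nearer to those of all genes than those of the 41 did. Of 26 other lysosomal hydrolases, 5 were higher and 3 lower (19.2% and 11.5%, where all genes had 11.0% and 10.1%). Plbd1, a phospholipase B-like protein, read 117, 118 and 981, and Aga, which cleaves asparagine-linked sugars, read 441, 557 and 1189. Smpdl3b, a relative of the sphingomyelinase, read 762, 380 and 248 and was 3.07-fold lower on day 2.

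Of 31 other membrane proteins and transporters, 5 were higher and 4 lower on day 2 (16.1% and 12.9%, where all genes had 11.0% and 10.1%). The cystine exporter Ctns read 117, 318 and 947, and the sialic acid exporter Slc17a5 read 188, 524 and 801, both brighter on each day. Laptm5, a membrane protein best known from blood cells, read 2691, 2150 and 801 and was 3.36-fold lower. Of 19 other proton pump subunits, 4 were higher and 1 was lower (21.1% and 5.26%, where all genes had 11.0% and 10.1%). The median log2 ratio of these subunits was 0.66. The subunit Atp6v0a1 read 340, 660 and 1931 (log2 ratio 2.51, with 0.11 to 2.60 over its probe sets) and Atp6v0b read 2580, 3566 and 6474, while Atp6v0e2 read 264, 239 and 97.3.

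Sorting genes bring the enzymes to the lysosome. Of 30, 1 was higher on day 2 and 2 were lower (3.33% and 6.67%, where all genes had 11.0% and 10.1%). The median log2 ratio of the 30 was 0.35. The higher one was Gnptab, the enzyme that starts the mannose 6-phosphate tag of lysosomal enzymes, which read 525, 1026 and 2489, with log2 ratios of 2.00 to 2.62 over 3 probe sets. The sorting receptor Sorl1 read 2016, 674 and 571 and the adaptor subunit Ap1m1 1882, 1738 and 879.

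Relatives of Tfeb and the signalling genes that act on it at the lysosome were compared as 1 list of 21. On day 2, 3 were higher and 1 was lower (14.3% and 4.76%, where all genes had 11.0% and 10.1%). The median log2 ratio of the list was 0.12. Tfec, a close relative of Tfeb, was at the floor on day 0 and read 207 on day 1 and 1096 on day 2, at least 20.3-fold higher on day 2 (log2 ratio 4.34 ± 0.32, from 1 probe set). The other relatives, Tfe3 at 1298, 1128 and 1434 and Mitf at 484, 323 and 370, were within 2-fold of day 0 and are named after their values were seen. Folliculin (Flcn), a regulator of these factors, read 1081, 1707 and 3032, with day 2 log2 ratios of 0.48 to 1.49 over 3 probe sets, and its partner Fnip2 read 845, 1386 and 2100.

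**Figure D4:**
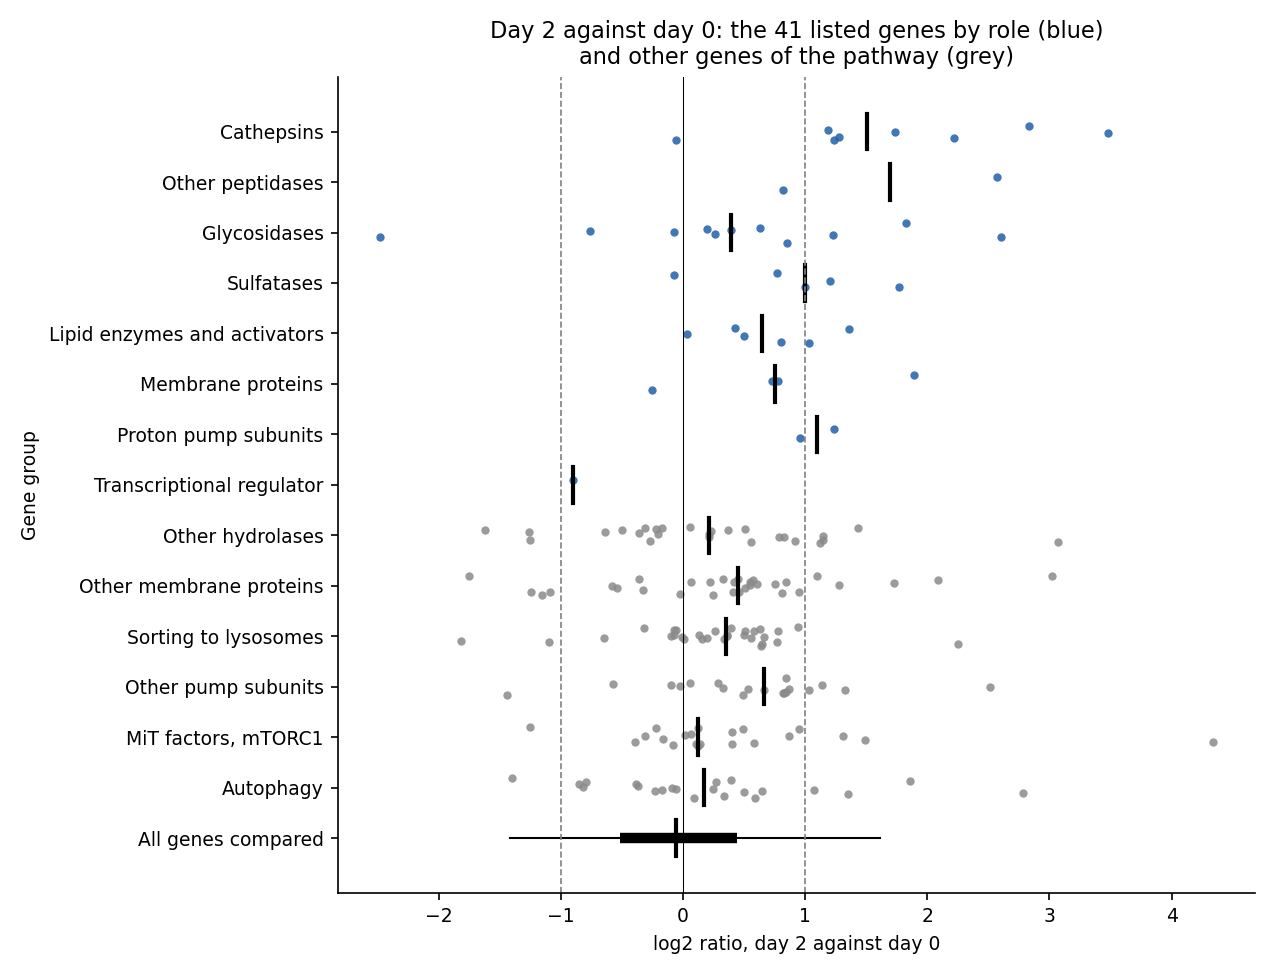
Log2 ratio of day 2 against day 0, with 1 point per gene, for the lysosomal genes by role (blue) and for other genes of the pathway (grey). Black bars are medians, and the bottom row gives the median, the interquartile range and the 5th to 95th percentile of all genes compared. The cathepsin median of 1.51 lies to the right of every grey median.

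Macrophages are rich in lysosomal transcripts, so their markers were read as well. Of 12 macrophage markers, 6 lay above the floor on any array and 0 were called higher or lower on day 1 or day 2. Their summed signals were 437, 492 and 682 on the 3 days. The widest day 2 ratios were those of Fcer1g (11.2, 4.6 and 102), Lyz2 (46.6, 51.2 and 85.4) and Adgre1 (55.7, 72.2 and 76.8). On day 0 these 3 were under or near the floor, so the folds are at least 1.90, 1.58 and 1.38. Whether they differed 2-fold cannot be told. Ptprc, Itgam, Tyrobp, Cd53, Aif1 and Fcgr3 were at the floor on each array, and the highest macrophage signal was 169, that of Csf1r on day 2. Of 11 fibroblast markers, for feeder cells, 4 lay above the floor, with summed signals of 759, 483 and 515. Among them Thy1 read 421, 75.4 and 50.5, by day 2 at least 7.80-fold below day 0. Twist1 read 7.0, 88.9 and 113 and was at least 2.08-fold higher, and Col1a2 read 84.8, 67.5 and 82.6. Col1a1, Col3a1, Postn, Dcn and Lum were at the floor on each array. Csf1r and the markers at the floor are named after their values were seen, and the part of such cells in the lysosomal values was not tested.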

How the data were processed

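Expression was read on 3 Affymetrix arrays of mouse ES cells, 1 each for day 0, 1 and 2. The authors deposited one linear intensity for each probe set. The submitters' processing notes name MAS5 and no version, and the scaling target is not known. Of 45101 probe sets, 64 were controls, 34958 were annotated to 1 gene, 932 to several and, controls aside, 9160 to none. Symbols came from the platform annotation, updated by gene identifier through a RefSeq table of GRCm38.p6 (34754 matched).

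Arrays were scaled to the same 2% trimmed mean over non-control probe sets, floored at the 40th percentile (54.0) and put on the log2 scale, with Python 3.11.15 and pandas 2.3.3. Calls needed a 2-fold difference. A fold against a signal under 70.3, the 95th percentile of 78 olfactory and vomeronasal receptor probe sets, is written as at least. The calling step was tested on simulated data. Errors came from the 2 brightest probe sets of each gene (20103 pairs over 3 comparisons). The number of arrays limits the precision. Named genes were all members, Gata6 and the 3 genes above the floor with the widest day 2 ratio of each further list, with exceptions said to be chosen later. The members, lists and rules were chosen with earlier results of these data known. Alternatives in floor, scaling, probe set choice and fold threshold were run.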

Additional observations from a re-analysis of the deposited data

How the results depend on the processing

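With 1 array a day, the spread between cultures is unknown and no call is a test. No paired analysis was possible because each day has 1 array. Dim genes (Naglu, Arsb, Sgsh, Ctsf, Idua) are limited by signal over background. With means over probe sets, 2 of 39 genes were higher on day 1 (4.60% of all genes), and the day 2 median was 0.73 against day 0 and 0.52 against day 1. A 60th percentile floor gave 0.78 and 0.58 for these medians. The first was 0.92 with loess scaling and 0.96 without probe sets that the array's design marks as matching several transcripts. A pseudocount of 50 left 6 genes higher between day 1 and day 2. A 3-fold threshold left 1 higher and 1 lower on day 1, 9 higher on day 2 against day 0 and 3 against day 1, and a 1.5-fold threshold gave 22 higher against day 1 and 3 lower on day 2 against day 0. Of the 18 genes higher on day 2, 12 kept the call with means over probe sets (Arsb, Ctsa, Ctsb, Ctsc, Ctsl and Sgsh lost it), 15 with the 60th percentile floor (Arsb, Naglu and Sgsh lost it) and 16 to 18 under the other 7 alternatives in floor, scaling and probe set. Arsa, at 2.00-fold, lost it with quantile normalization, loess scaling and the pseudocount. On day 1, the higher call was lost by Gusb with quantile normalization, loess scaling and the pseudocount and by Arsb with the 60th percentile floor and the pseudocount. With means over probe sets, 5 of the 7 day 1 higher calls were lost, those of Arsb, Ctsc, Ctsl, Gusb and Neu1. Of 1080 values of single members under alternatives, 1019 moved by less than the error, 61 by more, and 0 changed sign after a 2-fold call.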

Other observations

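Autophagy, the route by which cells deliver their own parts to lysosomes, was read through 22 genes compared. On day 2, 4 were at least 2-fold higher and 1 lower than on day 0 (18.2% and 4.55%, where all genes had 11.0% and 10.1%; median log2 ratio 0.17). The widest were Gabarapl1 and Gabarap, whose proteins coat the autophagosome membrane. Gabarapl1 read 443, 1965 and 3046 on days 0, 1 and 2, with log2 ratios of 2.69 and 2.78 in its 2 probe sets, and Gabarap read 2105, 2981 and 7649. Their relative Gabarapl2, named after its values were seen, was within 2-fold at 12588, 13908 and 9650. Pik3r4, a subunit of the lipid kinase complex that starts autophagosomes, read 716, 491 and 272.

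Common glucocorticoid targets were read because dex, the inducer named in the design text, is usually dexamethasone. Among those compared, 0 were higher on day 2 and 4 of 10 lower (where 11.0% of all genes were higher and 10.1% lower), and the median log2 ratio was -0.37. Angptl4 read 719, 391 and 103, Fkbp5 read 3375, 1284 and 786, and Pdk4 read 213, 202 and 79.0. The part of dex itself in the lysosomal values was not tested.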
